A study of Bos taurus with 9 samples.

Results

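The comparison was between high-marbled and low-marbled steers of Korean cattle, 3 animals each, 6 of the 9 animals of a study of castration. These 6 arrays were chosen by their labels, with earlier results of these data known. Steers are castrated males, and marbling is the fat that is visible within a muscle. Transcripts were measured in longissimus dorsi, the long muscle of the back, with 1 array and 1 colour for each animal. All 6 steers had been castrated at 6 months of age, fed in a conventional way and, taking the ages in the order in which the labels give them, slaughtered at 20 months. The labels name no further treatment for either group. How marbling was graded, and whether the groups shared sires, pens or slaughter days, is not stated in the sources used here. The 3 intact bulls of the study entered none of the values below.

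Intramuscular fat is stored as triglyceride in fat cells that lie between the muscle fibres and their bundles. Fatty acids reach it from the blood, where lipoprotein lipase frees them, or from synthesis in the fat cell by acetyl-CoA carboxylase and fatty acid synthase, and they leave it through lipolysis and oxidation in muscle mitochondria. A muscle sample of a marbled animal holds RNA of fibres, fat cells, vessels and connective tissue together. In such bulk samples a different share of a cell type and a different amount of RNA per cell cannot be told apart. The deposited table names its 8406 probes only by numbers between 3 and 12536. None of these numbers matched an identifier among the 37063 genes of the RefSeq table of the ARS-UCD2.0 assembly. The members of the pathways above, the markers of fat, fibre and vessel cells and the labelled tissue itself could therefore not be looked up. Results are given by probe number, without gene names or sequences.

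The authors deposited log2 values, and each level below is the log2 distance from near the middle of its own array. Array medians lay between -0.17 and -0.10, and the spread (SD) of an array was at most 2.26. At low values most of the numbers were whole multiples of a single step of intensity, which sets how coarse a dim probe is. The median probe read 2915, 1098 and 528 steps in high-marbled steers 1, 2 and 3, and 1275, 1393 and 612 steps in low-marbled steers 1, 2 and 3. High-marbled steer 1 thus had the highest median count of steps, and both animals numbered 3 had the lowest of their group. The step was found for each array by itself, and whether it is the same intensity on every array is not known. The SD of an array was 2.11 ± 0.11 for the high-marbled and 2.10 ± 0.14 for the low-marbled group (mean ± SD, n = 3 each). This gap was smaller than the spread between animals (exact two-sided permutation test over 20 splits, p = 0.80, smallest possible p = 0.10). The gap between the medians of the brightest and the dimmest 25% of probes was 4.94 ± 0.28 and 4.92 ± 0.37 log2 units (exact two-sided permutation test, p = 0.90).

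No probe could be told apart between high-marbled and low-marbled steers when the animals were compared as 2 groups. In this unpaired limma fit of the 6 arrays 0 of 8406 probes (0.0%) had an adjusted p under 0.05, and the smallest adjusted p was 0.29. An unadjusted p under 0.05 was found at 492 probes (5.85%), 204 higher and 288 lower in high-marbled steers. The median absolute difference of a probe was 0.26 log2 units, against a median standard error of 0.34. The median 95% interval reached 0.79 log2 units to either side. It lay wholly within 1 log2 unit (a 2-fold change) of 0 at 3183 probes (37.9%) and within 2 log2 units at 7853 (93.4%).

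Steers with the same replicate number in their labels, here called animal number, resembled each other more than steers of the same marbling group did. Across probes, same-numbered high-marbled and low-marbled steers correlated at r = 0.97, 0.96 and 0.97, and pairs within a group at 0.90 to 0.95. Deviations from the group means correlated at 0.62, 0.73 and 0.80 for numbers 1, 2 and 3, and at -0.70 to 0.05 between different numbers. The 3 deviations of a group sum to 0 at each probe, so likeness at the same number by itself pushes the other values below 0. Of the sum of squares over all probes and arrays, 70.8% lay between animal numbers, 18.4% between marbling groups and 10.8% in the rest. The 3 animal numbers take up more degrees of freedom than the marbling groups do. Each term also takes a share of pure noise, so these shares do not weigh the terms alike. The average of both animals numbered 3 lay farthest from the mean of all 6, at a median of 0.33 log2 units, compared with 0.23 for numbers 1 and 2. The labels do not say what this replicate number stands for, and what makes same-numbered arrays alike was not tested. Since all 3 correlations were clearly above 0, the steers were also compared as 3 pairs.

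Paired by animal number, 194 probes (2.31%) passed. Of these 57 (0.678%) were higher and 137 (1.63%) lower in high-marbled steers. The median standard error fell to 0.17 log2 units, and 2223 probes (26.4%) had an unadjusted p under 0.05, 1088 higher and 1135 lower. Called rises had a median of 1.15 log2 units (2.22-fold) and called falls one of -1.23 (2.34-fold). The smallest called difference was 0.82 and the largest 3.14 log2 units in size, and 14 called probes exceeded 2 log2 units. In pairs 1, 2 and 3 the called falls had medians of -1.26, -1.11 and -1.23 log2 units and the called rises medians of 1.14, 1.23 and 1.12, whose likeness the choice of probes by a paired test largely fixes. At 144 of the 194 probes the 3 high-marbled values did not overlap the 3 low-marbled ones, compared with 1073 of all probes (12.8%), 607 higher (7.22%) and 466 lower (5.54%). Choosing probes by a test on the same values makes such a gap frequent, so the higher share among called probes is no separate result. The paired 95% interval lay within 1 log2 unit of 0 at 6884 probes (81.9%). The count depended on single pairs, since it was 298 (3.55%) without pair 1, 0 (0.0%) without pair 2, with 1841 at an unadjusted p under 0.05, and 45 (0.535%) without pair 3. Only 2 residual degrees of freedom remained in this fit, to which the model added 4.11 from the spread of all probes.

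Differences of at least 1 log2 unit in every pair were found at 26 higher (0.309%) and 63 lower (0.749%) probes. In the brighter 50% of probes there were 2 and 9 of these. At least 2 log2 units in every pair were reached by 1 higher (0.0119%) and 3 lower (0.0357%) probes, and none of these lay in the brighter 50%. Over all probes 4229 (50.3%) moved the same way in 3 of 3 pairs, 2266 upward (27.0%) and 1963 downward (23.4%).

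The 4 probes that follow were the largest rise and the largest fall among all called probes and among those in the brighter 50%. Probe 12275 showed the largest rise. It read -1.27, -1.16 and -0.44 in high-marbled steers 1, 2 and 3 and -3.63, -3.74 and -2.82 in low-marbled steers 1, 2 and 3. The groups did not overlap, and the 3 pairs differed by 2.36, 2.57 and 2.38 log2 units. The rise was 2.44 log2 units (5.41-fold, SE 0.15, paired limma adjusted p = 0.018, unpaired adjusted p = 0.31). This probe was dim in low-marbled steers, at 98 to 112 intensity steps, against 434 to 1297 in high-marbled steers.

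Probe 2300 showed the largest fall. Its level was -6.57, -5.61 and -4.16 in high-marbled and -2.34, -3.05 and -1.54 in low-marbled steers 1, 2 and 3. The high-marbled animals were all below the low-marbled ones, and pair 1 differed most, at -4.23 log2 units against -2.55 and -2.62. The fall was -3.14 log2 units (8.79-fold, SE 0.34, paired limma adjusted p = 0.031, unpaired 0.32). High-marbled steers read 25 to 33 steps there, where the lowest values of their arrays were 4 to 17 steps. With 50 steps added to every value the fall shrank to -2.01 log2 units and lost its call (paired limma adjusted p = 0.059).

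Probe 5784 showed the largest rise in the brighter 50% of probes. It stood at 0.33, 0.56 and 1.00 in high-marbled steers 1, 2 and 3 and at -0.85, -1.67 and -0.20 in low-marbled ones. No low-marbled value reached a high-marbled one, but the difference of pair 2, at 2.23 log2 units, was well above the 1.19 and 1.21 of the others. The mean rise was 1.54 log2 units (2.91-fold, SE 0.24, paired limma adjusted p = 0.041, unpaired 0.55), at 468 to 3949 intensity steps. Probe 2237 showed the largest fall in the brighter 50%. Its values were -1.55, 0.31 and -0.04 in high-marbled and 1.32, 2.03 and 1.24 in low-marbled steers 1, 2 and 3. The groups did not overlap, with pair 1 farthest apart at -2.87 log2 units and pair 3 closest at -1.28. The fall was -1.96 log2 units (3.89-fold, SE 0.31, paired limma adjusted p = 0.041, unpaired 0.52). Without pair 2 the differences of probes 12275, 2300, 5784 and 2237 were 2.37, -3.43, 1.20 and -2.08 log2 units, and none was called (paired limma adjusted p between 0.053 and 0.10). Probe 5784 also lost its call without pair 3, at 1.71 log2 units (adjusted p = 0.057).

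**Figure D1:**
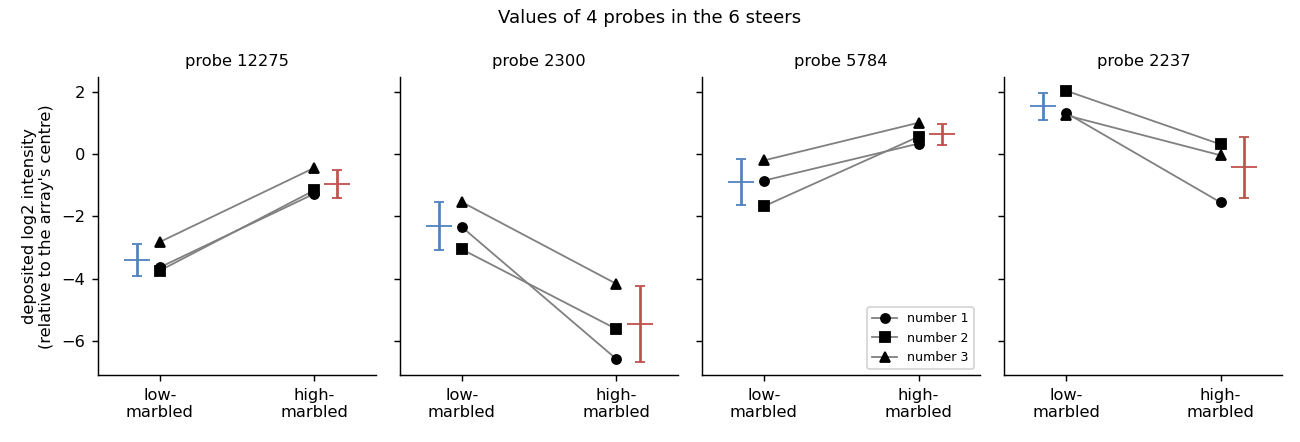
Deposited log2 intensity (vertical axis) of probes 12275, 2300, 5784 and 2237 in low-marbled and high-marbled steers. Black symbols are single animals, grey lines join animals of the same number, and coloured bars give the mean and SD over 3 animals. In each panel the groups do not overlap, and at probe 2300 pair 1 differs most, by -4.23 log2 units.

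Called probes were mainly dim. In the dimmest 25% of probes 127 of 2101 (6.05%) were called, in the next 25% 39, then 25, and in the brightest 25% 3 of 2102 (0.143%). Falls outnumbered rises in each of these classes, at 84 to 43, 29 to 10, 22 to 3 and 2 to 1. At 112 of the 194 called probes (57.7%) at least 1 array read under 100 intensity steps, compared with 15.6% of all probes. Fewer were called among probes that the whole steps do not show to be a single spot, at 15 of 1735 (0.865%), than among single spots, at 179 of 6671 (2.68%). Within the dimmest 25% these shares were 3.06% and 6.60%. When the dimmest 25% were left out before the fit, 0 of 6304 probes (0.0%) were called, with 1430 at an unadjusted p under 0.05 (limma). The differences of the probes that stayed in are the same by construction, such as 1.54 at probe 5784 and -1.96 at probe 2237. The part of the standard error that the model takes from all probes was estimated anew, and the p-values were adjusted over fewer probes. The adjusted p of these 2 probes moved to 0.083 (paired limma). With 50 intensity steps added to every value, 46 probes (0.547%) were called.

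The called probes also followed the probe number. Among the 2102 lowest numbers, 3 to 2875, 93 called probes were lower and 6 higher in high-marbled steers. Among the 2101 highest numbers, 8916 to 12536, 2 were lower and 28 higher. The classes between held 26 lower and 11 higher, and 16 lower and 12 higher. The median difference of all probes went the same way, from -0.12 log2 units in the lowest numbers through -0.01 and 0.04 to 0.17 in the highest. Each pair showed it, with medians of -0.10, -0.11 and -0.15 in the lowest and 0.16, 0.15 and 0.19 in the highest numbers. The median level of the same 4 classes varied only between -0.17 and -0.10.

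**Figure D2:**
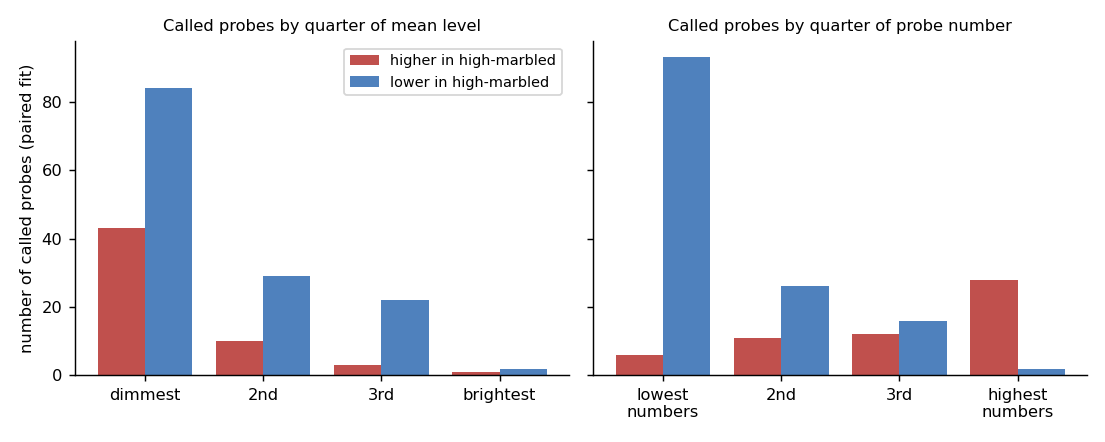
Number of probes called in the paired fit (vertical axis), higher (red) or lower (blue) in high-marbled steers, in 4 equal classes of mean level (left) and of probe number (right). The dimmest class holds 127 of the 194 calls. The lowest probe numbers hold 93 falls and 6 rises, the highest 2 falls and 28 rises.

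The difference between the marbling groups was alike at probes with neighbouring numbers, and again at probes 56 numbers apart. Across 5994 pairs of adjacent probe numbers the high minus low differences correlated at r = 0.32. At a distance of 28 the correlation was -0.02, and at distances of 56, 112 and 168 it was 0.35, 0.32 and 0.31. Of all distances from 1 to 600 the strongest was 56, in the mean difference and in each of the 3 pairs, at r = 0.24, 0.20 and 0.27. For mean levels r was -0.01 for adjacent numbers and 0.00 at a distance of 56. Levels spread far more widely, with an SD of 2.0 to 2.3 log2 units on an array. The mean differences of neighbouring probes, described below, had an SD of only 0.22. A pattern of that size would hardly move r for levels, so these values cannot show whether levels hold one. These correlations are across probes of the same arrays. Such a period is what rows of 56 probes would give, but the layout of the array is not stated in the sources used here.

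**Figure D3:**
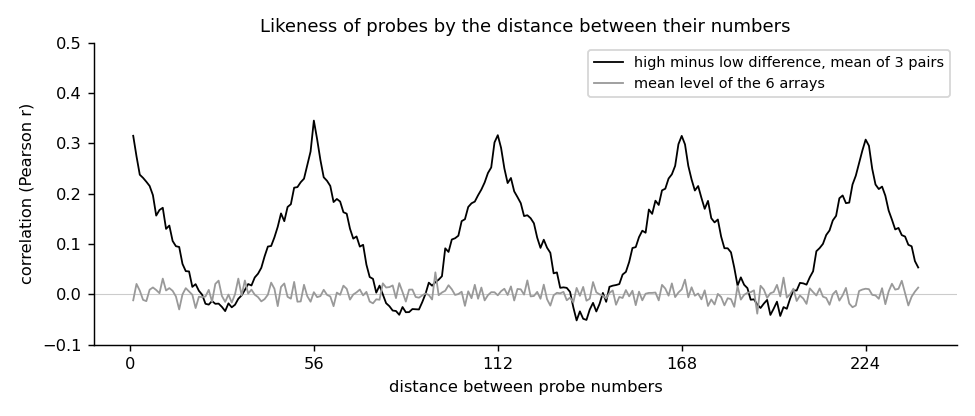
Pearson correlation (vertical axis) between probes that lie a given distance apart in probe number (horizontal axis), for the high minus low difference averaged over 3 pairs (black) and for the mean level (grey). The black line peaks at 56, 112, 168 and 224, at 0.35 for 56, while the grey line stays near 0. Levels spread so widely that a pattern of the same size would also leave the grey line near 0.

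Laid out in rows of 56, the numbers gave a map whose broad shape all 3 pairs shared. The width of 56 was taken from these same differences after they had been seen. That choice by itself favours likeness between neighbouring rows. The layout was cut into 16 blocks of 56 rows and 14 columns. In 14 of these the median difference had the same sign in all 3 pairs, 8 higher and 6 lower. The block with the lowest rows and columns held 518 probes with a median difference of -0.34 log2 units (-0.33, -0.25 and -0.45 in pairs 1, 2 and 3), and 59 of the 194 called probes, 58 of them lower. The 4 blocks with the highest rows had medians between 0.14 and 0.23 log2 units and held 22 called probes, 21 of them higher. Each probe was then set against the mean difference of its neighbours, a median of 81 other probes in a window of 11 rows and 11 columns. These neighbourhood means ran from -0.75 to 0.91 log2 units. They correlated at 0.87, 0.90 and 0.83 between the pairs 1 and 2, 1 and 3, and 2 and 3, which share no array. A probe's own difference correlated with that of its neighbours at r = 0.51. The value was 0.62 in the dimmest and 0.43 in the brightest 25% of probes.

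**Figure D4:**
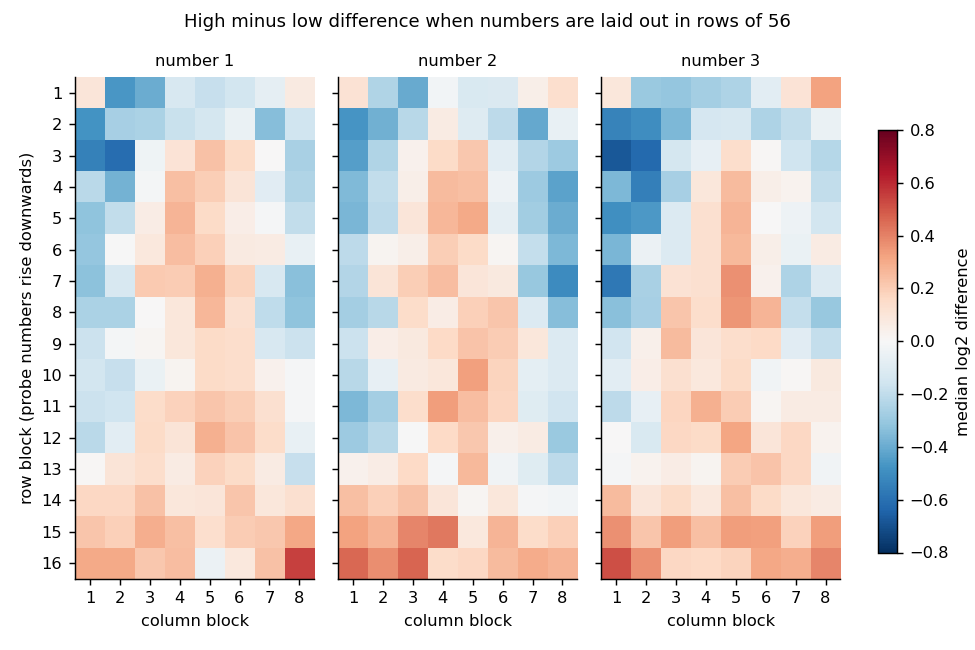
Median high minus low difference (colour, log2 units) in blocks of 14 rows and 7 columns when probe numbers are laid out in rows of 56, for animal numbers 1, 2 and 3. The broad shape is that of the coarser blocks, higher at the bottom (0.14 to 0.23). Above it, from the top down, they are lower at the left edge (-0.34, -0.24 and -0.11) and at the right edge (-0.12, -0.20 and -0.01). Single small blocks depart from this shape, such as the first, at 0.096, 0.11 and 0.088 in the 3 pairs.

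The pattern lay between the marbling groups more than within them. The correlation at a distance of 56 was 0.045 to 0.084 for the 6 differences between animals of the same group. It was 0.20 to 0.27 for the 3 differences between same-numbered animals and 0.099 to 0.22 for the 6 other differences between a high-marbled and a low-marbled animal. This correlation falls as the whole spread of a difference grows. That SD was 0.66 to 0.99 log2 units within groups, 0.51 to 0.59 for same-numbered animals and 0.70 to 1.05 for the 6 others. The correlations therefore do not rank these kinds by the size of the pattern. The neighbourhood means had an SD of 0.14 to 0.17 log2 units within groups and 0.21 to 0.30 between them. All 9 differences between groups thus exceeded all 6 within groups on both measures. The differences share arrays and are given as a description. What the pattern comes from was not tested.

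Taking the neighbourhood mean out of each array left few called probes. The paired fit then called 3 probes (0.0357%), 2 higher and 1 lower, and all 3 were among the 194. All 3 lay in the dimmest 25%, and the smallest adjusted p was 0.034. With a wider window of 21 rows and columns 6 probes (0.0714%) were called, all among the 194. The median standard error was 0.16 log2 units, close to the 0.17 before. All 194 probes kept their direction, which their size largely fixes. The smallest called difference was 0.82 log2 units, and the neighbourhood means ran only from -0.75 to 0.91. An unadjusted p under 0.05 was then found at 1747 probes, against 2223 before. Probe 12275 was still called, with a rise of 2.02 log2 units (paired limma adjusted p = 0.034). Probe 2300 differed by -2.69 (adjusted p = 0.092), probe 5784 differed by 1.50 (0.096) and probe 2237 by -1.69 log2 units (0.10), and these were not called. The unpaired fit again called 0 probes, with 307 at an unadjusted p under 0.05 (limma). This correction was chosen after the data had been seen.

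**Figure D5:**
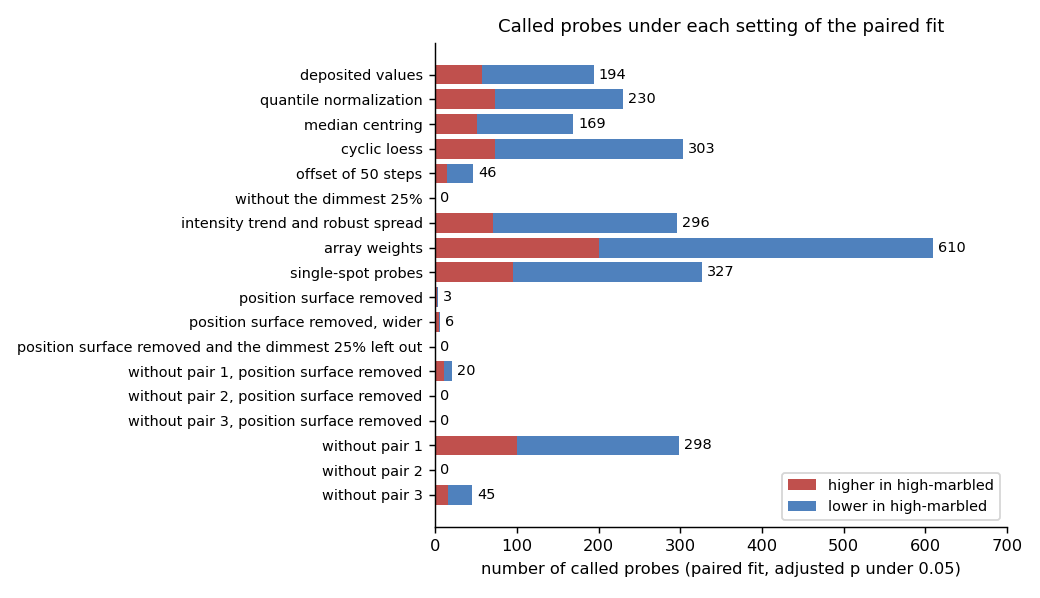
Number of probes called in the paired fit (horizontal axis), split into higher (red) and lower (blue) in high-marbled steers, under each setting. The count is 194 with the deposited values, 3 with the neighbourhood mean taken out (position surface removed), and 0 without pair 2 or without the dimmest 25% of probes. Each setting tested 8406 probes, except 6671 for single-spot probes and 6304 where the dimmest 25% were left out.

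Differences of single probes still resembled each other between pairs once position was taken out. Across all probes, the high minus low differences of pairs 1 and 2 correlated at r = 0.43, those of pairs 1 and 3 at 0.47 and those of pairs 2 and 3 at 0.45. In the dimmest 25% of probes the values were 0.60, 0.64 and 0.56, and in the brightest 25% 0.23, 0.33 and 0.22. With the neighbourhood mean removed they were 0.32, 0.36 and 0.36 over all probes. The share of probes that moved the same way in 3 of 3 pairs was then 45.1%, against 50.3% before, and the median absolute difference was 0.22 log2 units, against 0.26. Differences of probes 56 apart still correlated at 0.10, so the correction did not take out all of the pattern. The pairs share no array, but all of them set a high-marbled against a low-marbled animal on the same probes, so whatever else differed between the groups enters each pair.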

How the data were processed

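The authors deposited 1 table of log2 intensities per probe and array, centred near 0; no source used here gives the software, the background correction or what the centring used. Per the labels' protocols, biotin-labelled amplified RNA was hybridised to a custom CombiMatrix array, for which the series text gives 10199 genes. Base 2 and the intensity step were read from the values: of the 4000 lowest values on each array, 84.4% to 85.1% came out as a whole count of steps (tolerance 0.06). Without a background level or detection call, dim probes cannot be set against background.

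High-marbled minus low-marbled steers was fitted with limma 3.58.1 in R 4.3.3 on the deposited log2 values of 6 arrays, without a filter. Probes whose p, adjusted over all 8406 by Benjamini-Hochberg, was under 0.05 are described as called. A second fit had the replicate number of the labels, here called animal number, as a block. It was added since same-numbered steers deviated together (0.62, 0.73 and 0.80) in the data, though no label says that they are paired. The named probes were the largest called rise and fall, overall and in the brighter 50%. The gene lists needed gene names and were not tested. The members and lists were chosen with earlier results of these data known. Nothing says whether animals were independent in rearing, so unpaired p-values measure the spread between these samples within a group. Paired p-values measure the spread of the 3 pair differences, with what same-numbered animals share taken out. Both fits also draw on the spread of all probes. The precision is limited by 3 arrays a group.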

Additional observations from a re-analysis of the deposited data

How the results depend on the processing

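The unpaired fit called 0 probes under every alternative run except the replicate block, which gave the 194 of the paired fit. Its unadjusted count under 0.05 ranged over these from 148 of 6304 probes to 769 of 8406, and without single animals from 338 to 609. Without single animals its smallest adjusted p (unpaired limma) ran from 0.0503, high-marbled steer 1 left out, to 0.91, low-marbled steer 1 left out. In the paired fit (replicate block) the count was 230 after quantile normalization and 169 after median centring. These and the counts below are of 8406 probes unless another number is given. The count was 303 after cyclic loess, 296 with an intensity trend and robust spread and 610 with array weights. It was 327 of 6671 with single-spot probes alone and 931 at a threshold of 0.10. It was 46 with an offset of 50 steps and 0 of 6304 without the dimmest 25%. With the position surface removed it was 3 and 6 over the narrower and wider window, and 0 of 6304 with the dimmest 25% also left out. Leaving out each pair gave 0 to 298, and 0 to 20 with the position surface removed as well. Except that fewer arrays or probes and a looser threshold change a count by construction, the cause was not tested. The median absolute difference was 0.22 log2 units with the position surface removed over either window. The mean correlation of the pair differences, 0.45, was 0.39 with the offset, 0.35 without the dimmest 25%, 0.35 and 0.36 with the position surface removed, and 0.43 to 0.47 when a pair was left out. The difference in array SD was 0.0088 to 0.033 without each pair. The difference in the gap between the brightest and dimmest 25%, 0.019, was -0.0095 to 0.070, with -0.0046 without pair 1. The 4 named probes kept their direction in all settings, which their choice makes likely, and probes 12275, 2300, 5784 and 2237 passed in 12 of 16, 9 of 16, 7 of 18 and 8 of 18. The removal of the position surface and the left-out pairs for the medians, correlations and array measures were added after the data had been seen. Signal over background is unknown, so no limit from detection can be given.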
